A study of Mus musculus with 2 samples.

Results

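Primitive streak and early mesoderm genes were examined in mouse embryonic stem cells (mESCs) after knockdown of USP21. The group holds 10 genes, T, Eomes, Tbx6, Mixl1, Gsc, Evx1, Lhx1, Mesp1, Wnt3 and Fgf8, chosen by symbol among the 23889 gene symbols of the deposited tables. All 10 were listed in both libraries. Their transcripts were scarce with either shRNA, and 8 of the 10 stayed below an FPKM of 1 in both libraries. FPKM is the number of sequenced fragments scaled to transcript length and to the fragments of the library, so levels of different genes can be compared on this scale. With USP21 shRNA T, Tbx6 and Wnt3 were listed at higher values and the 4 homeobox genes at lower values, while Eomes, Mesp1 and Fgf8 differed little. No difference could be set against replicate error, since each group had 1 library.

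The primitive streak is the strip of the gastrulating embryo through which epiblast cells leave the epithelium to form mesoderm and definitive endoderm. WNT3 and NODAL signals induce it, T-box and homeobox transcription factors specify its parts, and FGF8 is needed for cells to move away from it. mESCs held in LIF keep these genes nearly silent, and their appearance in such cultures is a common sign of differentiation towards mesoderm and endoderm.

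The study asked how the deubiquitinase USP21 maintains mESCs through the stability of Nanog. Both groups were cells of E14, an established mESC line from a mouse strain that the labels write as 19/Ola, grown without feeder cells on gelatin in serum with LIF. One group was transfected with a control shRNA (genotype given as normal) and the other with a USP21 shRNA (genotype given as USP21 knockdown), and both were harvested 3 days later. The labels do not say which USP21 hairpin was used, so effects of a single hairpin and of USP21 loss cannot be told apart. Total RNA was sequenced, with 1 control shRNA library and 1 USP21 shRNA library.

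Usp21 itself (chr1:171281945-171287991, minus strand) had an FPKM of 26.2 with control shRNA and 3.49 with USP21 shRNA, 13.3% of the control value. Defining transcripts of mESCs were abundant with either shRNA. Of 14 such markers, 13 reached an FPKM of 1 in at least 1 library, and Pou5f1 stood at 868 and 752. Summed over all symbols, FPKM came to 613617 with control shRNA and 543206 with USP21 shRNA. The tables hold no counts, so the number of fragments behind each value was estimated from the step that 1 fragment makes in low values, and by this estimate the control library was 1.24 times as deep as the other.

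Upstream sequences are shown for T, Tbx6 and Wnt3, the 3 genes whose listed FPKM was more than 2-fold higher with USP21 shRNA, and for Lhx1. By the 2-fold call used here, which adds a pseudocount, none of the 10 was higher and Lhx1 was the only one lower. Gsc and Evx1 were also more than 2-fold lower in listed FPKM and are not shown. The share of all genes past 2-fold in listed FPKM was not computed, so these folds are not read as a result about the group. The sequences are taken from RefSeq on GRCm38.p6, which had an entry for 8 of the 10 genes (not for Mixl1 and Fgf8). Each run is written 5′ to 3′ on the strand of the gene and ends where RefSeq or GENCODE, whichever lies further upstream, starts the transcript. Capitals mark the letters of a searched motif, on either strand. The searched motifs were the CCAAT box, TATAAA for the TATA-type promoter, GGGCGG for the GC-rich Sp1 site, ATCAAAG for TCF/LEF factors, AGGTGT for the core of the T-box site, TGTNNATT for FOXH1 and the octamer ATGCAAAT. The runs lie at chr17:8434173-8434422 (T, plus strand), chr7:126781233-126781482 (Tbx6, plus strand), chr11:103773925-103774149 (Wnt3, plus strand) and chr11:84525536-84525784 (Lhx1, minus strand).
T: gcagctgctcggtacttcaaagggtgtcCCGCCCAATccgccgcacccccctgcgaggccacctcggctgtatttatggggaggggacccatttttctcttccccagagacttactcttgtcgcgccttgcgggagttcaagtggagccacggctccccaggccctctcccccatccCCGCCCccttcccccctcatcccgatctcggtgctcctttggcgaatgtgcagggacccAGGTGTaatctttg
Tbx6: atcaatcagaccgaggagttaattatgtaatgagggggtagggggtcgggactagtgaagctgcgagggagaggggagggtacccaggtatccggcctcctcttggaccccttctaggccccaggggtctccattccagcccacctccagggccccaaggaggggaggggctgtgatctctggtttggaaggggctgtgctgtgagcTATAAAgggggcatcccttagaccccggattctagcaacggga
Wnt3: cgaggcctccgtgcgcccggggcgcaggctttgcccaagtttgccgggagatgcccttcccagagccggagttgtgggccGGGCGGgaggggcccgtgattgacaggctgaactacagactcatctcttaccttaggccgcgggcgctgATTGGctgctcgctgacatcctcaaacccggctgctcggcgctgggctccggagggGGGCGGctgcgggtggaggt
Lhx1: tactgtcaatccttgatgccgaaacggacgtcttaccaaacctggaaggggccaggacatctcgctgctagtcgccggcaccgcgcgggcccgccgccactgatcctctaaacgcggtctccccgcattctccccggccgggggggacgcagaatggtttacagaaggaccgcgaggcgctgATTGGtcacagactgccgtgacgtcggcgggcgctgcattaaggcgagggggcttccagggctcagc

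The 4 runs differ in their letters. In T, counting back from the RefSeq start, an AGGTGT lies at -14, a GGGCGG (on the other strand) at -73, and another GGGCGG and a CCAAT box overlap at -222 and -218. Tbx6 held a single match, a TATAAA at -43. Wnt3 held a CCAAT box at -101 and GGGCGG at -170 and -45, and Lhx1 a CCAAT box at -68. In windows of 300 bases (250 before and 50 after the start), CCAAT was found in 5 of the 8 genes and in 37.4% of all 32851 promoters. GGGCGG was found in 3 of the 8 (T, Gsc, Wnt3) and 35.7% of promoters, and TATAAA in 2 (Tbx6, Gsc) and 13.6%. AGGTGT was found in 3 (T, Evx1, Mesp1) and 13.7%, ATCAAAG in 1 (Mesp1) and 3.73%, ATGCAAAT in 1 (Evx1) and 1.74%, and TGTNNATT in none of the 8 and 12.2% of promoters. A match describes letters only and does not show that a factor binds there.

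The ratio of observed to expected CpG was 0.384 in the median promoter, and 6 of the 8 genes lay above it. Lhx1 (0.961) and Gsc (0.934) were the most CpG-rich of the 8, followed by Wnt3 (0.744), Evx1 (0.710), and T and Eomes (0.607 each). Tbx6 (0.286) and Mesp1 (0.174) lay below the median. The CpG-rich promoters belonged both to genes listed higher and to genes listed lower after USP21 knockdown.

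**Figure D1:**
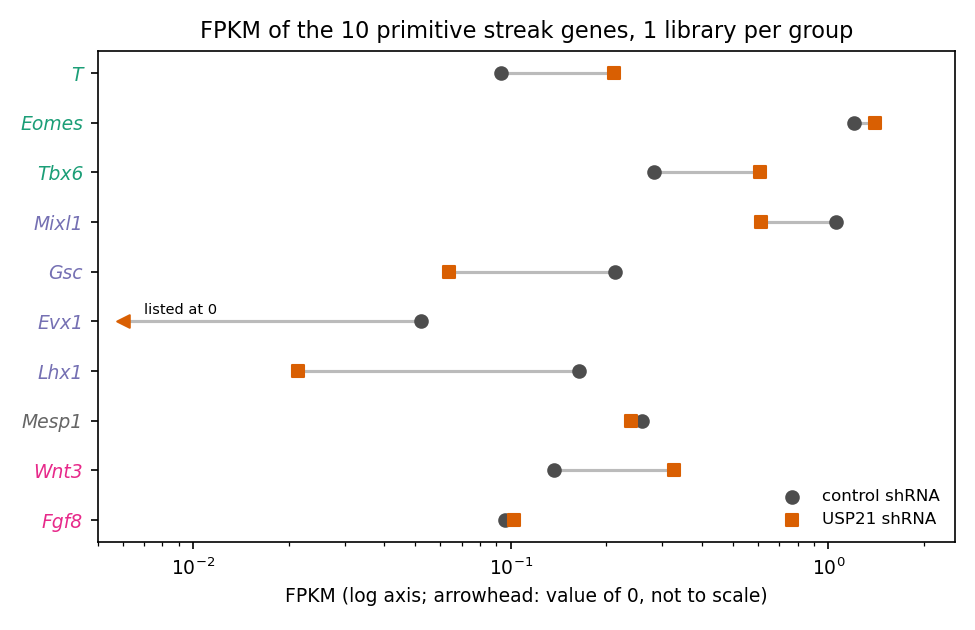
FPKM (log axis) of the 10 primitive streak genes with control shRNA (grey circles) and USP21 shRNA (orange squares), 1 library per group, with gene names coloured by family (T-box green, homeobox purple, Mesp1 grey, ligands pink) and no error bars because there are no replicates. Only Eomes and Mixl1 pass 1, and Evx1 is listed at 0 with USP21 shRNA (arrowhead, not to scale).

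In the control library the order of levels was Eomes, Mixl1, Tbx6, Mesp1, Gsc, Lhx1, Wnt3, Fgf8, T and Evx1, from an FPKM of 1.20 down to 0.0520. With USP21 shRNA it was Eomes, Mixl1, Tbx6, Wnt3, Mesp1, T, Fgf8, Gsc, Lhx1 and Evx1, from 1.40 down to 0. Eomes, Mixl1 and Tbx6 thus led in both libraries, T and Wnt3 moved up, and Gsc and Lhx1 moved down to just above Evx1. Without replicates it cannot be said which neighbours in either order differ beyond their spread. The summed FPKM of the 10 genes was 3.56 with control shRNA and 3.59 with USP21 shRNA, and Eomes and Mixl1 made up 63.5% and 56.1% of it. The median of the 10 values was 0.189 and 0.226. In bulk RNA, more cells with a transcript and more transcript per cell cannot be told apart.

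Among the T-box factors, Eomes was the most abundant. Eomes (chr9:118478212-118486132, plus strand, 6 exons) acts in the anterior streak in the formation of cardiac mesoderm and definitive endoderm. Its FPKM was 1.20 with control shRNA and 1.40 with USP21 shRNA, a log2 ratio of 0.20 after adding a pseudocount of 0.1 to each value, the scale used for all log2 ratios unless another is named. In the control library 47.2% of symbols had a higher value than Eomes, so even the leading gene of the group stood near the middle of the table. Its estimated fragments were about 132 and 124, the largest of the 10 genes, and in these numbers the USP21 library was not higher, since it was the shallower of the pair.

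T (Brachyury, chr17:8434423-8442496, plus strand, 8 exons) marks the streak and nascent mesoderm and is needed for posterior mesoderm and the notochord. Its FPKM was 0.0931 with control shRNA and 0.211 with USP21 shRNA, 2.27 times the control value, with a log2 ratio of 0.69. These values rest on about 6 and 11 fragments. Tbx6 (chr7:126781483-126785560, plus strand, 8 exons) directs paraxial mesoderm away from a neural fate. Its FPKM was 0.282 with control shRNA and 0.609 with USP21 shRNA, 2.16 times the control value, with a log2 ratio of 0.89, the highest of the group. About 15 and 26 fragments lay behind these values. All 3 T-box genes were thus listed higher with USP21 shRNA, Eomes only slightly. Their summed FPKM was 1.58 and 2.22, or about 153 and 161 fragments.

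Of 14 other T-box genes, 7 passed the same filter as the 10, an FPKM of at least 0.1 in at least 1 library. Of these 7, 3 were higher and 4 lower with USP21 shRNA, none by 2-fold, with a median log2 ratio of -0.02. Tbx3, a T-box gene of the mESC network, was the most abundant at 70.6 and 64.9, and Mga had 11.2 and 17.4. Both exceeded Eomes in either library.

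The homeobox factors were listed lower with USP21 shRNA without exception. Mixl1 (chr1:180693043-180697034, minus strand, 2 exons), a streak gene required for normal endoderm and axial mesoderm, had an FPKM of 1.06 with control shRNA and 0.613 with USP21 shRNA. Its log2 ratio was -0.70 and its estimated fragments about 74 and 35. Mixl1 and Eomes were the only genes of the group with over 30 estimated fragments in a library. Both are downstream of NODAL in the embryo, and they were listed in opposite directions here.

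Gsc (goosecoid, chr12:104471209-104473330, minus strand, 3 exons) marks the anterior streak and the organizer. Its FPKM was 0.212 with control shRNA and 0.0641 with USP21 shRNA, from about 8 and 2 fragments, with a log2 ratio of -0.93. Lhx1 (Lim1, chr11:84518284-84525535, minus strand, 5 exons), a LIM homeobox factor required in the embryo for head formation, had an FPKM of 0.164 and 0.0213. About 19 and 2 fragments lay behind these values, and the log2 ratio was -1.12, the lowest of the group and the only value past 2-fold. Evx1 (chr6:52313498-52318378, plus strand, 3 exons), a gene of the posterior streak, had an FPKM of 0.0520 with control shRNA, about 5 fragments, and was listed at 0 with USP21 shRNA. No fold is given for Evx1, which stayed under the filter of an FPKM of 0.1 in at least 1 library. The 4 homeobox genes summed to 1.48 with control shRNA and 0.699 with USP21 shRNA, or about 106 and 39 fragments.

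Of the 13 other LIM homeobox, goosecoid and Evx genes, 6 passed the filter, 1 of them higher and 5 lower with USP21 shRNA, with a median log2 ratio of -0.50. None reached an FPKM of 1. The gene past 2-fold was Lmx1b, at 0.267 and 0.0835 and it was chosen here after its values were seen.

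Mesp1 (chr7:79792241-79793788, minus strand, 2 exons) encodes a basic helix-loop-helix factor of the earliest cardiac mesoderm. Its FPKM was 0.259 with control shRNA and 0.240 with USP21 shRNA, about 10 and 8 fragments, with a log2 ratio of -0.08. The sign of this ratio turned under other scalings, to 0.05 when the libraries were rescaled to the same sum and to 0.02 after a correction for transcript length. Its paralogue Mesp2, 16.9 kb away on the opposite strand, stood higher at 2.47 and 1.84. Of the 31-base words in the Mesp1 transcript 0.964% also occur in other genes, Mesp2 among them, so few fragments could be shared.

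Of the secreted ligands, Wnt3 is the signal that starts streak formation. Wnt3 (chr11:103774150-103817957, plus strand, 5 exons) had an FPKM of 0.137 with control shRNA and 0.328 with USP21 shRNA, 2.39 times the control value and the largest ratio above 1 in the group. Its log2 ratio was 0.85, from about 13 and 25 fragments. Fgf8 (chr19:45736798-45742915, minus strand, 5 exons) had an FPKM of 0.0961 and 0.102, about 3 fragments in each library, with a log2 ratio of 0.04. At this depth the level of Fgf8 is barely above that of single fragments, 1 of which is worth an FPKM of 0.0279 in the control and 0.0346 in the USP21 library.

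Some other ligands of both families were more abundant than Wnt3 and Fgf8. Of 18 other Wnt genes, 13 passed the filter, 8 of them higher and 5 lower with USP21 shRNA, with a median log2 ratio of 0.13. Wnt6 was the most abundant at 12.9 and 12.4 (chosen after its values were seen). Wnt11 was past 2-fold, at 1.22 and 0.536 with a log2 ratio of -1.05. The other genes of the Fgf8 subfamily were Fgf17, at 23.5 and 16.0, and Fgf18, at 0.862 and 1.14. Fgf17 and Fgf18 were thus both above Fgf8 in either library, on the same per-length scale.

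**Figure D2:**
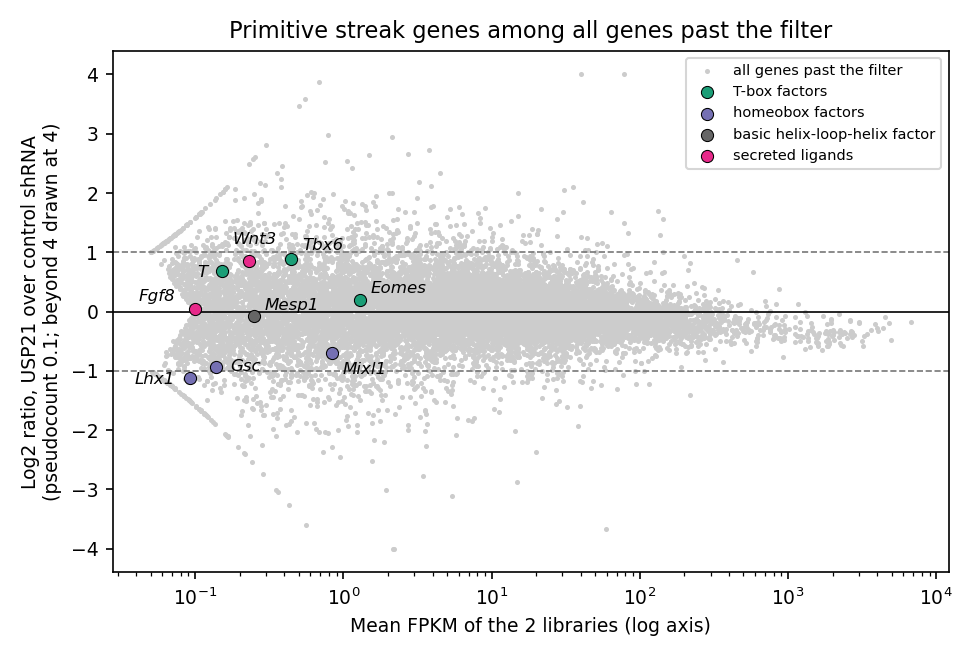
Log2 ratio of USP21 shRNA over control shRNA (pseudocount 0.1) against the mean FPKM of the 2 libraries (log axis) for all 15316 genes past the filter (grey) and the 9 primitive streak genes past it (coloured by family), with dashed lines at 2-fold and values beyond 4 drawn at 4. The spread of all genes widens towards low FPKM, where most of the 9 lie, and Lhx1 alone is past a dashed line.

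The 2-fold differences of the group were set against those of all genes. Of the 10 genes 9 passed the filter, and 0 of these were 2-fold higher and 1 was 2-fold lower with USP21 shRNA. Among all 15316 genes past the filter, 3.4% were 2-fold higher and 3.0% were 2-fold lower. The median log2 ratio of the 9 genes was 0.04 and that of all genes 0.00, with a range of the 9 from -1.12 to 0.89. The middle of the group thus lay at the middle of the table, with genes to either side.

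Low genes varied more than abundant ones. Of the genes with a mean FPKM from 0.1 to 1, 6.9% were 2-fold higher and 6.1% 2-fold lower, and 6 of the 9 genes (T, Tbx6, Mixl1, Gsc, Mesp1 and Wnt3) lay in this band. Of the genes with a mean FPKM from 1 to 10, where Eomes lies, 3.51% were 2-fold higher and 3.05% 2-fold lower. The quartiles of the log2 ratio in the lower band were -0.40 and 0.43. T, Tbx6, Wnt3, Mixl1 and Gsc lay outside them, as did Lhx1, whose mean FPKM was just under the band. Mesp1 lay between them, as did Fgf8 (0.04), also just under the band. By construction as many genes of the band lie outside its quartiles as between them.

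**Figure D3:**
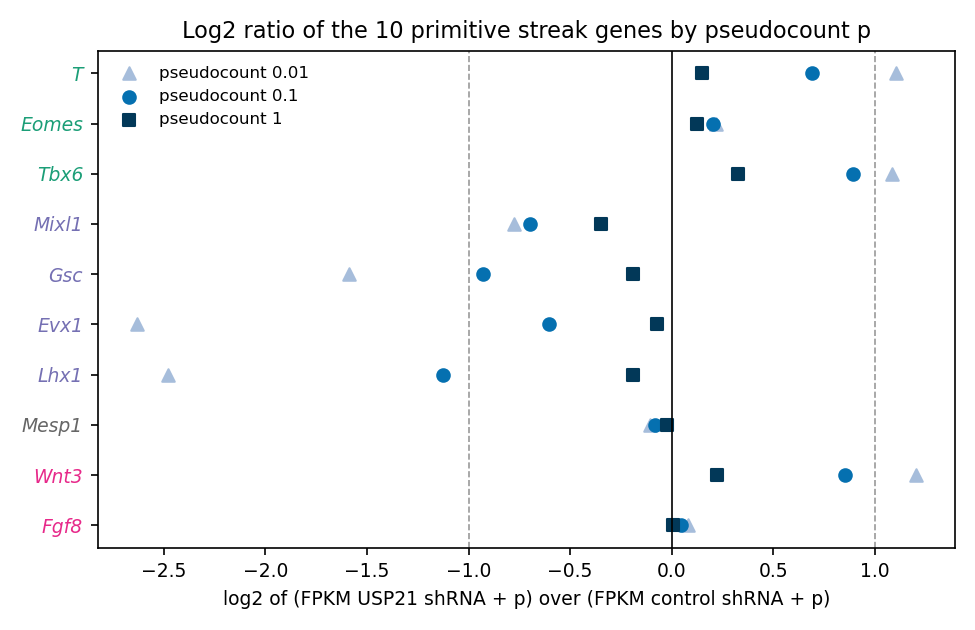
Log2 ratio of USP21 shRNA over control shRNA for the 10 primitive streak genes with a pseudocount of 0.01 (light triangles), 0.1 (circles) or 1 (dark squares), and dashed lines at 2-fold. No gene changes sides of 0, but T, Tbx6, Wnt3, Gsc and Evx1 (at -2.63, listed at 0 with USP21 shRNA and under the filter) cross the dashed lines with 0.01, and with 1 no gene is past them.

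The pseudocount decided how large these differences appeared. With 0.01, 3 genes were 2-fold higher (T at 1.10, Tbx6 at 1.08 and Wnt3 at 1.20) and 2 were 2-fold lower (Gsc at -1.59 and Lhx1 at -2.48), beside 5.32% and 4.68% of all genes. These shares cover genes of every level and were not computed for low genes alone. With 0.1, genes with a mean FPKM from 0.1 to 1 passed 2-fold more often than all genes (6.9% and 6.1%). The counts with 0.01 therefore do not show that the group differed from genes of its own level. With 1, the largest ratios were 0.33 for Tbx6 and -0.35 for Mixl1. Eomes, with its higher level, moved only between 0.12 and 0.22. The direction of each gene was the same with all 3 pseudocounts.

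Other genes of the streak and nascent mesoderm were also low. Of 22 such genes 16 passed the filter, 9 of them higher and 7 lower with USP21 shRNA and none by 2-fold, with a median log2 ratio of 0.09. The 4 largest differences among those with an FPKM of at least 1 were in Cdx1, a caudal-type homeobox gene of the posterior streak (1.08 and 1.94, log2 ratio 0.79), Fgf17 (-0.55), Mesp2 (-0.41) and Amot (3.87 and 5.01, 0.37). Several genes of interest beside T and Wnt3 were chosen after their values were seen. Wnt3a, the ligand that maintains T in the posterior streak, had 0.276 and 0.312. Sp5, a WNT target, had 0.195 and 0.0544, and Msgn1, a target of Tbx6 and WNT in presomitic mesoderm, had 0.0568 and was listed at 0. Dll1, a Notch ligand of paraxial mesoderm, had 0.238 and 0.499. The picked genes thus lay on both sides, Dll1, Cdx1 and Wnt3a higher and Sp5 and Msgn1 lower. Also listed higher were Cdx2 (0.157 and 0.268), Cdx4 (0.322 and 0.600) and Wnt8a (0.148 and 0.178), and lower Nkx1-2 (0.257 and 0.224). The balance among picked genes is therefore no measure of the whole list, in which 9 were higher and 7 lower. Of the genes picked here Msgn1 stayed under the filter, and all but Cdx1 stayed below an FPKM of 1 in both libraries, so their directions rest on low values.

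Genes of later mesoderm and of heart and blood progenitors also lay on both sides. Of 26 listed genes 25 were in the tables and 19 passed the filter, with 11 higher, 8 lower and a median log2 ratio of 0.13. Hand1, a factor of extraembryonic and lateral mesoderm, was 2-fold higher (0.403 and 1.25, log2 ratio 1.42), and Lmo2, a factor of blood progenitors, 2-fold lower (1.39 and 0.569, -1.15). Pdgfra had 2.48 and 4.22 and Gata6 8.60 and 10.8. Of 11 definitive endoderm genes 10 passed the filter, with 6 higher, 4 lower and none past 2-fold. Foxa2, which acts with Eomes and Gsc in the anterior streak, stood at 1.59 and 1.35.

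**Figure D4:**
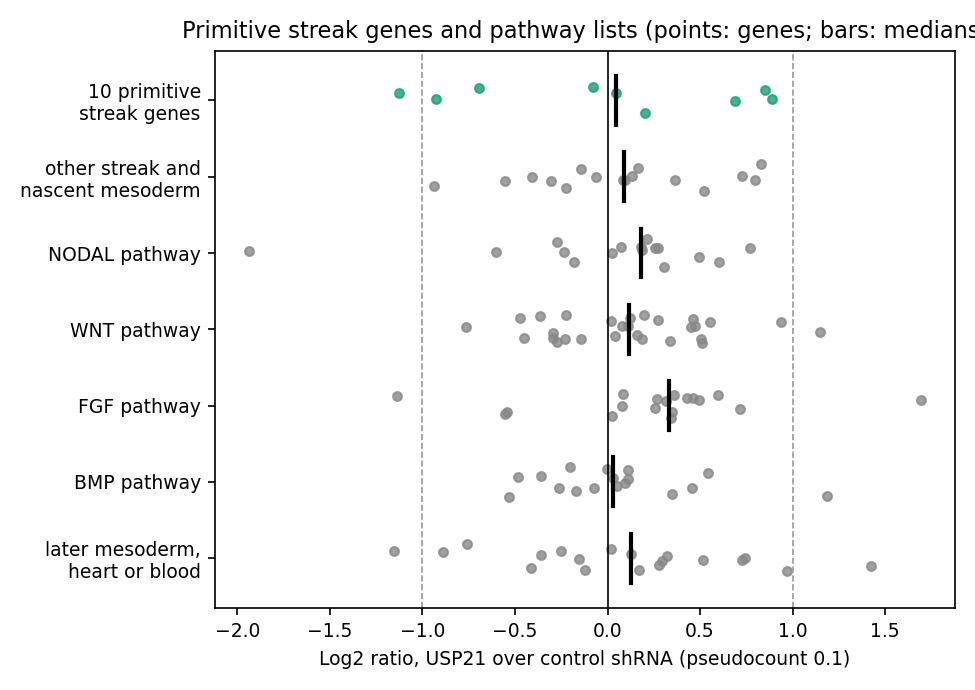
Log2 ratio of USP21 shRNA over control shRNA (pseudocount 0.1) for the genes past the filter in each list, with 1 point per gene, black bars at the list medians and dashed lines at 2-fold (points are spread vertically only for legibility). The 9 primitive streak genes (green) spread to both sides of 0, while Lefty2 at -1.94 and Fgfr2 at 1.69 are the widest points of the pathways.

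The NODAL pathway, which induces Eomes, Mixl1 and Gsc in the embryo, was well represented. Of 17 genes 16 passed the filter, 11 of them higher and 5 lower with USP21 shRNA, with a median log2 ratio of 0.18. Lefty2, a secreted NODAL antagonist and target, was the only gene past 2-fold, at 60.8 and 15.8 with a log2 ratio of -1.94. Its neighbour and paralogue Lefty1 had 35.8 and 23.6 (-0.60). The pathway's transcription factor Foxh1 had 17.7 and 30.2 (0.77). The receptors Acvr1b (17.1 and 19.4), Acvr2a (3.86 and 4.78) and Acvr2b (7.31 and 8.77) were listed slightly higher. The coreceptor Tdgf1, the most abundant gene of this list, was listed lower, at 235 and 195 (-0.27, named after its values were seen). Nodal itself, named after its values were seen, had 30.9 and 31.4. The ligand was thus abundant in both libraries, and its values differed less than those of Mixl1 and Gsc.

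In the WNT pathway, through which Wnt3 acts on T, 28 of 28 genes passed the filter, 18 of them higher and 10 lower, with a median log2 ratio of 0.12. The receptor Fzd2 was the only gene past 2-fold (2.72 and 6.15, log2 ratio 1.15), followed by the receptors Fzd7 (10.2 and 19.6, 0.94) and Fzd6 (1.32 and 1.98, 0.55). Fzd1, Fzd3, Fzd5 and the coreceptor Lrp6 (log2 ratio 0.46) were also listed higher. Receptors lay on both sides, since Fzd10 (9.29 and 7.19, -0.37), the coreceptor Lrp5 (23.6 and 19.3, -0.29) and Fzd4 (1.24 and 1.04, -0.23) were listed lower. Tcf7l2, a nuclear effector, had 5.19 and 7.43. The secreted antagonists of the list were listed lower, Sfrp1 at 34.1 and 24.5, Notum at 23.2 and 16.9, and Dkk1 at 2.84 and 2.34. The negative regulators that WNT signalling induces lay on both sides (named after their values were seen). Axin2 had 2.14 and 1.82, while Nkd1 had 0.825 and 1.21, Znrf3 5.55 and 7.04, and Rnf43 0.148 and 0.177.

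In the FGF pathway 18 of 19 genes passed the filter, 15 of them higher and 3 lower, with a median log2 ratio of 0.33, against 0.00 for all genes. Among the receptors, Fgfr2 was 2-fold higher (0.456 and 1.70, log2 ratio 1.69) and Fgfr3 2-fold lower (2.17 and 0.931, -1.14). Fgfr1, the receptor that streak cells need to move, was the most abundant of the 4 at 19.8 and 24.7, and Fgfr4 had 2.24 and 2.70. The feedback inhibitors Dusp6 (29.9 and 49.2, 0.72) and Spry4 (35.8 and 54.1, 0.59) were listed higher. Fgf8, by contrast, stayed at about 0.1 in both libraries.

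In the BMP pathway 17 of 18 genes passed the filter, 9 of them higher and 8 lower, with a median log2 ratio of 0.03. The inhibitory Smad6 was the only gene past 2-fold (2.95 and 6.84, log2 ratio 1.19). Smad5 had 10.4 and 15.2. The ligand Bmp4, which acts upstream of Wnt3 in the embryo, had 17.7 and 12.2 (-0.53). BMP targets lay on both sides, Id3 at 28.2 and 20.1 (-0.48), Id1 at 95.3 and 98.9 (0.05) and Id2 at 13.6 and 17.4 (0.35). The inhibitory Smad7 was more abundant than Smad6 and was listed lower, at 42.4 and 33.1 (-0.36). Id1, Id2 and Smad7 were named after their values were seen.

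Genes next to the 10 were compared with them on the GENCODE annotation of GRCm38. Tbx6 lies 0.969 kb from Ypel3 and 0.306 kb from Ppp4c, and these stood at 15.1 and 13.4 and at 98.5 and 97.6. Aatf, 4.76 kb from Lhx1, had 53.1 and 54.4, and Nsf, 3.83 kb from Wnt3, had 59.5 and 63.0. Lin9, 2.35 kb from Mixl1, had 13.3 and 11.3, Golga4, 20.1 kb from Eomes, 13.8 and 14.7, and Npm3, 4.82 kb from Fgf8, 140 and 124. Acbd3, 29.0 kb from Mixl1, had 20.9 and 17.9. The log2 ratios of these neighbours ran from -0.24 for Lin9 to 0.09 for Golga4. Wider values were found for Fbxw4, 76.5 kb from Fgf8, at 2.71 and 4.38 (0.67), and for Dicer1, 214.0 kb from Gsc, at 15.1 and 19.2 (0.35). Beside Fgf8 (0.04), both Npm3 (-0.18) and Fbxw4 differed more than the gene itself, while beside Tbx6, Lhx1, Wnt3 and Mixl1 the abundant neighbours differed less. Log2 ratios of abundant genes spread less than those of low genes in these libraries. Whether any difference was local to a gene was not tested.

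Low neighbours, chosen after their values were seen, did not all lie in the direction of the gene beside them. T2, 10.9 kb from T on the same strand, had 0.0487 with control shRNA and 0.295 with USP21 shRNA (log2 ratio 1.41), in the direction of T. Lhx1os, a noncoding gene that starts 0.125 kb from Lhx1 on the opposite strand, had 0.156 and was listed at 0, in the direction of Lhx1. The noncoding gene 4933432G23Rik, 41.2 kb from Eomes, had 0.0938 and was listed at 0, against the direction of Eomes. The other neighbours below an FPKM of 1 with a value above 0 lay in the direction of their gene. These were Pde10a beside T (0.11), Serpina3n beside Gsc (-0.16), Wdr93 beside Mesp1 (-0.21) and Wnt9b beside Wnt3 (0.35). Whether the counting used strand is not given, but the annotated Lhx1 and Lhx1os do not overlap. The transcripts of T, Tbx6, Mixl1, Gsc, Lhx1 and Wnt3 share no 31-base word with another annotated gene (0.0%). Eomes shares 2.85%, Evx1 1.65% (with Evx2 and the overlapping antisense gene Evx1os) and Fgf8 0.703%.

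Markers of other states and cell types also differed between the libraries, and their part in the values of the 10 genes was not tested. The 14 mESC markers summed to an FPKM of 4753 with control shRNA and 3672 with USP21 shRNA, with 3 higher and 11 lower, among them Nanog (467 and 258) and Tfcp2l1 (59.0 and 30.2). Of 10 formative and primed epiblast markers 9 passed the filter, with 6 higher and 3 lower, Otx2 among the higher (4.42 and 8.78). Fgf5, the usual marker of the primed epiblast that precedes the streak, stayed under 0.1 in both libraries (0.0999 and 0.0517, named after its values were seen).

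The 13 primitive endoderm markers summed to 224.7 and 327.4, of which Sparc made up 94.9 and 191. Of the 12 past the filter 6 were higher and 6 lower. Past 2-fold were Sparc, higher, and Sox7 (4.68 and 1.97) and Ttr (0.420 and 0.0373), lower. The 11 trophectoderm markers summed to 77.7 and 66.4, with 5 higher and 5 lower of 10 past the filter. Hand1 and Gata3 (0.547 and 1.36) were 2-fold higher. Among more abundant markers, named after their values were seen, Krt8 (22.0 and 13.9) and Krt18 (12.3 and 8.92) were listed lower and Tfap2c (8.83 and 11.4) higher. Elf5 stayed under the filter, at 0.0330 with control shRNA and 0 with USP21 shRNA. The 10 neural markers summed to 47.3 and 32.1, mostly from Tubb3 (38.5 and 20.4). Of the 5 past the filter 3 were lower, Tubb3 among them, and 2 were higher, Sox1 (6.08 and 8.30) and Nes (1.71 and 2.42). The 10 fibroblast markers summed to 20.0 and 7.32, nearly all from Thy1 (17.3 and 5.29), while Lum was at 0 in both libraries.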

How the data were processed

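Total RNA of 2 libraries of E14 mESCs (1 control shRNA, 1 USP21 shRNA, harvested at day 3) was analysed from 1 deposited FPKM table per library, with 1 value per gene symbol. The submitters' processing notes name CASAVA 1.8.2, TopHat2 2.0.14, Cufflinks 2.2.1 and the mouse build mm9. They give no roles or order, and the gene annotation and strand setting are not given in the sources used here. No scaling by the authors beyond FPKM is stated.

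A pseudocount of 0.1 was added to each FPKM and the log2 ratio of the USP21 shRNA to the control shRNA value was taken for all 23889 symbols, of which the 15316 with an FPKM of at least 0.1 in at least 1 library were kept. This scale understates the change of low genes. A gene was called at 2-fold, a size rule and not a test, because 1 library per group gives no replicate error. The group was read against the share of all genes past the same fold. Since the tables lack counts, neither a count model nor an interval or detection limit was computed. Approximate fragment numbers came from the smallest step in FPKM times transcript kilobases (0.0326 in the control and 0.0404 in the USP21 shRNA library), a depth ratio of 1.24. They are whole only approximately, since the lengths are of GENCODE M21 transcripts (GRCm38) and not of the authors' annotation. Lengths were found for 95.2% of the genes past the filter.

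Coordinates are GRCm38 from GENCODE M21, since the tables hold none, and upstream sequences are from RefSeq (GRCm38.p6). The genes and lists were chosen with earlier results of these data known. Named were all 10 genes, Usp21, up to 4 genes per further list with the largest absolute log2 ratio among those with an FPKM of at least 1 in a library, receptors and antagonists with an FPKM of at least 1, and neighbours with an FPKM of at least 1, and exceptions are said to be chosen after their values were seen. One gene that this rule picks is not reported here. Alternatives were pseudocounts of 1 and 0.01, rescaling to the same sum, setting the median log2 ratio to 0, a lowess correction for transcript length (span 0.3), no filter or a filter at FPKM 1, and 1.5-fold or 3-fold calls. The scripts were tested on simulated data. The versions were Python 3.11.15, matplotlib 3.10.9, statsmodels 0.14.6, scipy 1.17.1, pandas 2.3.3 and numpy 2.4.6.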

Additional observations from a re-analysis of the deposited data

How the results depend on the processing

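The count of the 10 genes 2-fold higher was 0, and it became 3 with a pseudocount of 0.01, 1 when the libraries were rescaled to the same sum and 3 at 1.5-fold. The count 2-fold lower was 1, and it became 0 with a pseudocount of 1, 2 with 0.01, 0 with a filter at FPKM 1, 3 at 1.5-fold and 0 at 3-fold. Among all genes past the filter, 3.4% were 2-fold higher and 3.0% 2-fold lower, or 5.32% and 4.68% with 0.01. The shares of all genes under the other settings and folds were not computed, so these counts are not read as a result about the group. The median log2 ratio of 0.04 turned to -0.019 with no filter, which brings in Evx1, and to -0.25 with the filter at FPKM 1, which leaves Eomes and Mixl1. Mesp1 turned from -0.08 to 0.045 after rescaling and to 0.022 after the length correction, and no other gene of the 10 changed direction under the pseudocounts, the rescaling, the centring or the length correction (Evx1 had no value under the last). Rescaling moved the median of all genes by 0.17, from 0.00 to 0.17, and 50.5% of all genes past the filter were higher without it. Longer transcripts had higher log2 ratios (Spearman's rho 0.251 across genes, which are not replicates), and the cause was not tested. Usp21 stayed at -2.60 or lower under each of the 5 settings tried on it. No paired analysis was possible because each group has 1 library, and no library could be left out. The lack of replicates limits every gene, and 8 of the 10 also rest on about 30 estimated fragments or fewer.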
